A study of Mus musculus with 49 samples.

Results

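*Zbtb32*, *Zbtb16*, *Zbtb7b*, and *Zbtb20* encode transcription factors with a BTB domain and zinc fingers, and *Ikzf1* to *Ikzf5* encode the Ikaros family of zinc finger factors. These 9 genes, of 23992 gene symbols measured, were taken by symbol, each with its longest RefSeq transcript, and their RNA was followed in CD8+ T cells that received IL-2. *Zbtb32* was chosen by its KI and WT levels at 48 hr, as the transcription factor most lowered in KI cells, so its values at that time are given as a description without a test, and the other times and the other 8 genes are tested. CD8+ T cells were enriched from spleens of mice of either sex, 8 to 24 weeks old and backcrossed to C57BL/6J, with a negative selection kit. *Stat5a* KI and *Stat5b* KI mice are homozygous for a codon that puts phenylalanine in place of the tyrosine whose phosphorylation activates STAT5A or STAT5B, and the WT cells of each line came from littermates, so each KI carries 1 mutated and 1 intact STAT5 gene. The codons were changed by CRISPR/Cas9 with donor oligonucleotides that also carry silent changes, and they are carried in every cell of the mouse, not only in T cells. Cells were collected without IL-2 (0 hr) or after 4, 24, or 48 hr with recombinant human IL-2 at 500 IU/ml, which gives 16 groups of 1 line, 1 genotype, and 1 time.

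Each group has 3 libraries, except *Stat5a* KI at 4 hr, in which replicate 3 was not used and 2 remain. That library holds 1028515 reads on the longest transcripts, and the 47 libraries used hold 17369112 to 60200653, with a median of 41410666. Replicate 2 of the *Stat5a* WT cells at 4 hr is the shallowest of the 47 and stood apart from its group. Its longest transcripts took 44.9% of the mapped reads. *Ikzf1* was at 49.8 RPKM there, against 91.5 and 88.2 in the other replicates, and *Ikzf3* at 34.4, against 48.4 and 39.5. RPKM is a read count divided by the length of the transcript and by the number of mapped reads in the library. The tests used the counts with TMM scaling in place of the mapped reads, and the fold changes at 4 hr in the *Stat5a* line that use that replicate are also given without it. The tyrosine codon change leaves the *Stat5a* and *Stat5b* transcripts in place, so their level does not check the genotype labels. *Stat5a* was at 19.7 ± 0.778 RPKM in WT and 20.0 ± 1.85 in KI cells of its line at 0 hr (SD, n = 3). *Cd8b1*, which encodes a chain of the CD8 co-receptor, had a mean of 349.5 RPKM over the 47 libraries and was the most abundant of 10 CD8 T cell markers.

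IL-2 binding to its receptor leads JAK kinases to phosphorylate STAT5A and STAT5B, which then enter the nucleus and bind GAS motifs near their target genes. BTB zinc finger factors are mostly transcriptional repressors that recruit corepressors through the BTB domain, and several of them decide between lymphocyte fates. ZBTB32 (also named ROG or PLZP) restrains cytokine expression and proliferation of activated lymphocytes, ZBTB16 (PLZF) directs natural killer T (NKT) and other innate-like T cells, ZBTB7B (ThPOK) commits thymocytes to the CD4 fate, and ZBTB20 acts in B cells, plasma cells, and T cell metabolism. The Ikaros factors share N-terminal DNA-binding fingers and C-terminal dimerization fingers, and they associate with the NuRD complex. IKZF1 (Ikaros) and IKZF3 (Aiolos) are abundant in lymphocytes, IKZF2 (Helios) and IKZF4 (Eos) are known from regulatory T cells, and IKZF5 (Pegasus) is the most divergent of the family.

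The loci are given on GRCm38. *Zbtb32* (gene ID 58206) lies on chromosome 7 at 30589680-30602819, and the counted transcript, on the minus strand, spans 30589681-30592942 in 6 exons of 1775 bases. *Ikzf5* (67143) is on the same chromosome at 131388649-131410518. *Zbtb16* (235320) is on chromosome 9 at 48651797-48836225, *Zbtb7b* (22724) on chromosome 3 at 89377644-89393673, and *Zbtb20* (56490) on chromosome 16 at 42875689-43634392. *Ikzf1* (22778) is on chromosome 11 at 11684962-11772930, as is *Ikzf3* (22780) at 98464610-98546031. *Ikzf2* (22779) is on chromosome 1 at 69531207-69687351 and *Ikzf4* (22781) on chromosome 10 at 128630839-128669671.

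RefSeq promoter windows of GRCm38.p6, from 250 bases before to 50 after a start site, were at hand for 5 of the 9 genes. They were searched on both strands for a GAS motif (TTCNNNGAA), the Ikaros core (GGGAA), an E-box (CACGTG), and an AP-1 site (TGANTCA). Of 32841 windows of all genes, 8.30% hold the GAS letters, 62.7% the Ikaros core, 7.15% the E-box, and 7.81% the AP-1 letters. The stretches of 3 windows that lie upstream of the start site and outside annotated exons are given 5′ to 3′. They are from *Zbtb32*, with the widest range of group means among the 9 genes, and *Zbtb20*, which was on the other side of WT in KI cells at 48 hr. The other is from *Ikzf5*, the only upstream stretch with GAS letters. Capitals mark the match, which is a description of letters and not a binding site.
Zbtb32 (chr7:30598939-30599159, minus strand, upstream of a start site at 30598909): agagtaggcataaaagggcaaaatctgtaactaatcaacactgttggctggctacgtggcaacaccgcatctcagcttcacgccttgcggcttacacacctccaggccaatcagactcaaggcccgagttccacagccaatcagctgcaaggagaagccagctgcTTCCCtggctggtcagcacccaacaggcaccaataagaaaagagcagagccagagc
Zbtb20 (chr16:43247034-43247283, plus strand, upstream of a start site at 43247284): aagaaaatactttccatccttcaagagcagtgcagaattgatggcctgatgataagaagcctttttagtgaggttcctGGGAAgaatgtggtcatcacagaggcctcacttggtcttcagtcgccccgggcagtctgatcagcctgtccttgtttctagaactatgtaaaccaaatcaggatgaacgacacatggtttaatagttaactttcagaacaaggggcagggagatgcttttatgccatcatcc
Ikzf5 (chr7:131410519-131410728, minus strand, upstream of a start site at 131410478): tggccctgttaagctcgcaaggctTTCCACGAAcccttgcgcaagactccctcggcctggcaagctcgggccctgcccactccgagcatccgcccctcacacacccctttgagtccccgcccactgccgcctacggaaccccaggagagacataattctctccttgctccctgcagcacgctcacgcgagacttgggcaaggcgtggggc
The *Zbtb32* stretch holds the Ikaros core on the opposite strand, at position −85 from that start site, and none of the other 3 motifs. The start site shown for *Zbtb32* is that of a longer transcript, upstream of the counted one, and that of *Ikzf5* is the start of the counted transcript. The *Zbtb20* stretch lies in an intron of the counted transcript, which starts upstream at 42907645. In the *Zbtb20* stretch, the Ikaros core begins at position −172, and the GAS letters of the *Ikzf5* stretch begin at position −226. After the start site, GAS letters are also in a window of *Ikzf1*, at position 19, and in that of *Zbtb20*, at position 33. Windows of 3 of the 5 genes thus hold them, and these 5 genes have 8 windows, while the shares above are per window.

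*Zbtb32* was low in unstimulated WT cells and high in WT cells at 48 hr. The *Stat5a* WT replicates were at 2.15, 1.19, and 1.71 RPKM at 0 hr, at 3.63, 1.48, and 1.69 at 4 hr, at 3.58, 5.51, and 5.91 at 24 hr, and at 20.5, 35.1, and 37.2 at 48 hr. The *Stat5b* WT replicates were at 1.65, 2.07, and 1.25 at 0 hr, at 2.17, 2.35, and 2.53 at 4 hr, at 5.30, 6.68, and 5.25 at 24 hr, and at 39.3, 40.2, and 33.4 at 48 hr. In both lines the 24 hr values lie above those at 0 hr in every library and the 48 hr values lie above those at 24 hr. WT values at 24 hr lay likewise above those at 0 hr for 40.3% and 42.2% of all tested genes in the *Stat5a* and *Stat5b* line. Relative to 0 hr, *Zbtb32* rose in WT cells at 24 hr by a log2 fold change of 1.40 ± 0.29 in the *Stat5a* line (SE, n = 3, adjusted p = 9.3e-05, edgeR's quasi-likelihood test, adjusted after Benjamini and Hochberg over all genes tested) and of 1.61 ± 0.30 in the *Stat5b* line (adjusted p = 1.5e-05). A gene is called here when its adjusted p is 0.05 or lower and its level differs by 2-fold or more, and such a gene is said to have risen or fallen. At 4 hr, the log2 fold changes were 0.44 (0.49 without replicate 2) and 0.33, with adjusted p of 0.208 and 0.390, so no change was called. At 48 hr, the level was 15.9-fold and 20.2-fold that at 0 hr.

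In KI cells no library exceeded 9.53 RPKM of *Zbtb32*. The *Stat5a* KI replicates were at 3.35, 1.53, and 1.51 RPKM at 0 hr, at 7.15 and 3.84 in the 2 libraries at 4 hr, at 4.53, 2.19, and 2.65 at 24 hr, and at 9.53, 4.93, and 6.12 at 48 hr. The *Stat5b* KI replicates were at 4.15, 4.32, and 4.18 at 0 hr, at 6.63, 6.96, and 6.93 at 4 hr, at 3.33, 3.42, and 4.69 at 24 hr, and at 3.72, 4.18, and 4.17 at 48 hr. The highest KI library at 48 hr, 9.53 RPKM, is below the lowest WT library at that time, 20.5 RPKM. In *Stat5b* KI cells the 4 hr libraries are the highest of the course, and those at 48 hr overlap those at 0 hr. Replicate 1 is the highest *Stat5a* KI library at each of the 4 times.

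**Figure D1:**
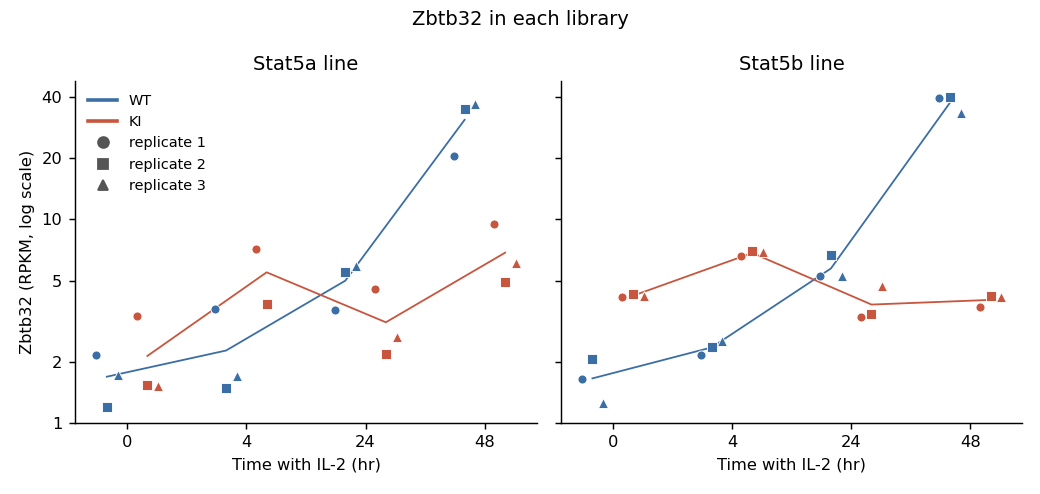
*Zbtb32* RPKM (log scale) in each library against time with IL-2 (hr, evenly spaced), with the *Stat5a* line at left and the *Stat5b* line at right. Points are libraries, shapes mark the replicate number, and lines join the group means, with WT in blue and KI in red. KI libraries lie above WT at 4 hr in both lines and below WT at 48 hr, when WT libraries reach 20.5 to 40.2 RPKM.

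The fitted KI effect on *Zbtb32* was above 0 at 0 and 4 hr and below 0 at 24 hr, where it was called in neither line, and at 48 hr, which took part in the choice. *Stat5b* KI cells were above WT cells by 1.29 ± 0.30 on the log2 scale at 0 hr (2.44-fold, adjusted p = 0.00165, edgeR) and by 1.43 ± 0.29 at 4 hr (2.70-fold, adjusted p = 0.00025), with every KI library above every WT library at both times. That separation was found for 28.4% and 31.3% of all tested genes at these times. At 24 hr, all 3 KI libraries were below the WT libraries, as for 29.7% of all tested genes, but the log2 fold change of −0.62 ± 0.28 was not called (adjusted p = 0.067, edgeR). At 48 hr the log2 fold change was −3.30, 9.88-fold lower. The KI effect at 24 hr minus that at 4 hr, a contrast added after the data were seen, was −2.05 ± 0.40 (adjusted p = 0.00015, edgeR), in a comparison in which 7.14% of all tested genes were called. These called values kept their call without each library in turn, and the 0 hr value was 0.99 in limma on log2(RPKM + 1), under the fold threshold.

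For the *Stat5a* line, the log2 fold change of *Zbtb32* between KI and WT cells was 0.30 ± 0.30 at 0 hr (adjusted p = 0.711, edgeR) and 1.00 ± 0.32 at 4 hr (adjusted p = 0.0219), where it just passed. The 4 hr call was lost without KI replicate 1 (0.54, adjusted p = 0.408), without WT replicate 3 (0.71, adjusted p = 0.102), without WT replicate 2 (0.96, adjusted p = 0.0656), and in a fit of only the groups compared (0.97, adjusted p = 0.735). It also fell just short of 2-fold in DESeq2 (0.95), with DESeq2's size factors (0.95), with no filter on low counts (0.98), and with the transcript of the highest mean count in place of the longest (0.96). At 24 hr it was −0.75 ± 0.29 (adjusted p = 0.063), with overlapping groups, and it passed only without KI replicate 1 (−1.11, adjusted p = 0.0165). The 48 hr value was −2.23, 4.68-fold lower, and −2.56 without KI replicate 1. The KI effect at 24 hr minus that at 4 hr was −1.75 ± 0.43 (adjusted p = 0.0075, edgeR; 3.01% of genes called), and the call was lost without KI replicate 1 at 4 hr (−1.29, adjusted p = 0.131) and in a fit of only the groups compared (−1.75, adjusted p = 0.258).

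The response of *Zbtb32* to IL-2 within KI cells can be set beside that in WT cells. In *Stat5a* KI cells *Zbtb32* rose at 4 hr by 1.15 ± 0.32 (log2, adjusted p = 0.0029, edgeR), a call that was lost without KI replicate 1 at 4 hr (0.67, adjusted p = 0.169), and without replicate 2 or 3 at 0 hr, where the fold fell short of 2 (0.96 and 0.95). At 24 hr the log2 fold change was 0.35 ± 0.30 (adjusted p = 0.325, edgeR). In *Stat5b* KI cells it was 0.47 ± 0.28 at 4 hr (adjusted p = 0.167, edgeR) and −0.30 ± 0.29 at 24 hr (adjusted p = 0.412). The KI response minus the WT response at 24 hr, also added after the data were seen, was −1.91 ± 0.41 in the *Stat5b* line (adjusted p = 0.00033, edgeR; 10.2% of genes called). For the *Stat5a* line it was −1.05 ± 0.42 (adjusted p = 0.161, edgeR). It passed without KI replicate 1 at 24 hr (−1.41, adjusted p = 0.0449). The difference of the KI effect between the lines was 0.99 ± 0.42 at 0 hr (adjusted p = 0.340, edgeR, 95% interval 0.15 to 1.82) and 0.13 ± 0.40 at 24 hr (adjusted p = 0.866, interval −0.65 to 0.92).

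Ordered by their means, the 16 groups of *Zbtb32* run from 1.65 ± 0.410 RPKM (SD, n = 3) in *Stat5b* WT cells at 0 hr to 37.7 ± 3.71 in *Stat5b* WT cells at 48 hr, a 22.8-fold range. The 14 lowest groups lie between 1.65 and 6.86 RPKM, and each overlaps its neighbour. *Stat5a* WT cells at 48 hr, at 30.9 ± 9.08 RPKM, are the only group apart from the next lower one. The 48 hr values of KI against WT, by which *Zbtb32* was chosen, were the 80th lowest of 15566 log2 fold changes in the *Stat5a* line, between −2.26 and −2.22, and the 26th lowest in the *Stat5b* line, between −3.34 and −3.21.

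*Ikzf4*, which encodes Eos, had the largest tested response to IL-2 of the 9 genes, at its height at 4 hr. WT replicates of the *Stat5a* line were at 0.991, 1.02, and 0.617 RPKM at 0 hr, at 11.7, 8.75, and 9.63 at 4 hr, at 4.39, 4.29, and 4.34 at 24 hr, and at 3.16, 2.74, and 3.003 at 48 hr. The *Stat5b* WT libraries were at 0.964, 0.565, and 0.684, at 10.96, 9.12, and 9.92, at 4.55, 4.47, and 3.60, and at 3.12, 2.82, and 3.08. In both lines the 4 hr libraries are the highest and none of the 4 times overlaps another. *Ikzf4* rose by a log2 fold change of 3.58 ± 0.18 at 4 hr in each line, 12.0-fold (adjusted p = 8.5e-19 and 1.4e-18, edgeR, and 3.44 in the *Stat5a* line without replicate 2), and it was still 2.95-fold and 3.60-fold above 0 hr at 48 hr.

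In KI cells *Ikzf4* rose as well, to lower levels. The *Stat5a* KI libraries were at 0.958, 1.25, and 1.14 RPKM at 0 hr, at 7.16 and 7.10 at 4 hr, at 2.71, 2.44, and 2.76 at 24 hr, and at 1.38, 1.48, and 1.68 at 48 hr. The *Stat5b* KI libraries were at 0.937, 0.994, and 1.04, at 8.25, 6.43, and 6.24, at 3.09, 3.01, and 3.05, and at 1.86, 1.30, and 1.77. All KI libraries lie below all WT libraries of their line at 4, 24, and 48 hr, and at 0 hr the groups overlap. At 4, 24, and 48 hr this also held for 3.39%, 14.3%, and 26.1% of all tested genes in the *Stat5a* line. In the *Stat5b* line the shares were 13.3%, 29.7%, and 32.1%. The log2 fold changes of *Ikzf4*, KI against WT, in the *Stat5a* line were −0.80 ± 0.18, −0.78 ± 0.16, and −1.02 ± 0.16 at 4, 24, and 48 hr (adjusted p = 0.0025, 0.00066, and 3.7e-06, edgeR). Of these, the 48 hr value reached 2-fold, and it was just short of it without WT replicate 1 (−0.97) or KI replicate 1 (−0.99), while the 4 hr value was −0.65 without WT replicate 2 (adjusted p = 0.0143, edgeR) and its adjusted p was 0.093 without KI replicate 1 and 0.735 with only those groups in the fit. The *Stat5b* values were −0.63 ± 0.16, −0.49 ± 0.16, and −0.95 ± 0.16 (adjusted p = 0.0022, 0.0099, and 4.9e-06, edgeR), all under 2-fold, and the 48 hr value passed 2-fold without WT replicate 2 (−1.04), KI replicate 1 (−1.04), or KI replicate 3 (−1.08).

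The smaller *Ikzf4* response in KI cells was tested as a difference of responses. The KI response minus the WT response in the *Stat5a* line was −1.14 ± 0.25 at 4 hr (adjusted p = 0.016, edgeR), −1.13 ± 0.24 at 24 hr (0.0035), and −1.37 ± 0.24 at 48 hr (4.4e-05), in comparisons in which 0.34%, 1.59%, and 6.25% of genes were called. Without WT replicate 2 at 4 hr, the 4 hr difference was −1.004 (adjusted p = 0.0299, edgeR). The 4 hr call was lost without KI replicate 1 at 4 hr (−1.11, adjusted p = 0.194), without WT replicate 3 at 0 hr (−0.95, 0.0484), without KI replicate 2 at 0 hr (−1.03, 0.0541), in a fit of only the groups compared (−1.16, 0.828), and in limma on log2(RPKM + 1) (−0.61), and the 24 hr value fell short of 2-fold without WT replicate 3 at 0 hr (−0.92). The *Stat5b* differences were −0.99 ± 0.24, −0.85 ± 0.24, and −1.31 ± 0.24 at 4, 24, and 48 hr (adjusted p = 0.0146, 0.0050, and 2.3e-05, edgeR), with 0.61%, 10.2%, and 21.4% of genes called, and the 48 hr one was called. The 4 hr value passed 2-fold without any of 5 single libraries, up to −1.20 without WT replicate 1 at 0 hr, and the 24 hr value without that library (−1.09). In limma on log2(RPKM + 1), the 48 hr value was −0.81, under 2-fold. The *Stat5a* values at 24 and 48 hr were also under 2-fold in limma (−0.73 and −0.84). In KI cells at 48 hr, *Ikzf4* was above 0 hr by 0.19 ± 0.17 (adjusted p = 0.338, edgeR) in the *Stat5a* line and by 0.54 ± 0.17 (adjusted p = 0.0085, under 2-fold) in the *Stat5b* line. At 24 hr it had risen by 1.01 ± 0.17 in *Stat5a* KI cells (adjusted p = 3.3e-06, edgeR), and this fell under 2-fold without KI replicate 1 at 0 hr (0.91) or KI replicate 3 at 24 hr (0.98), in DESeq2 (0.95), with DESeq2's size factors (0.95), with only the groups compared (0.98), and in limma on log2(RPKM + 1) (0.78).

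**Figure D2:**
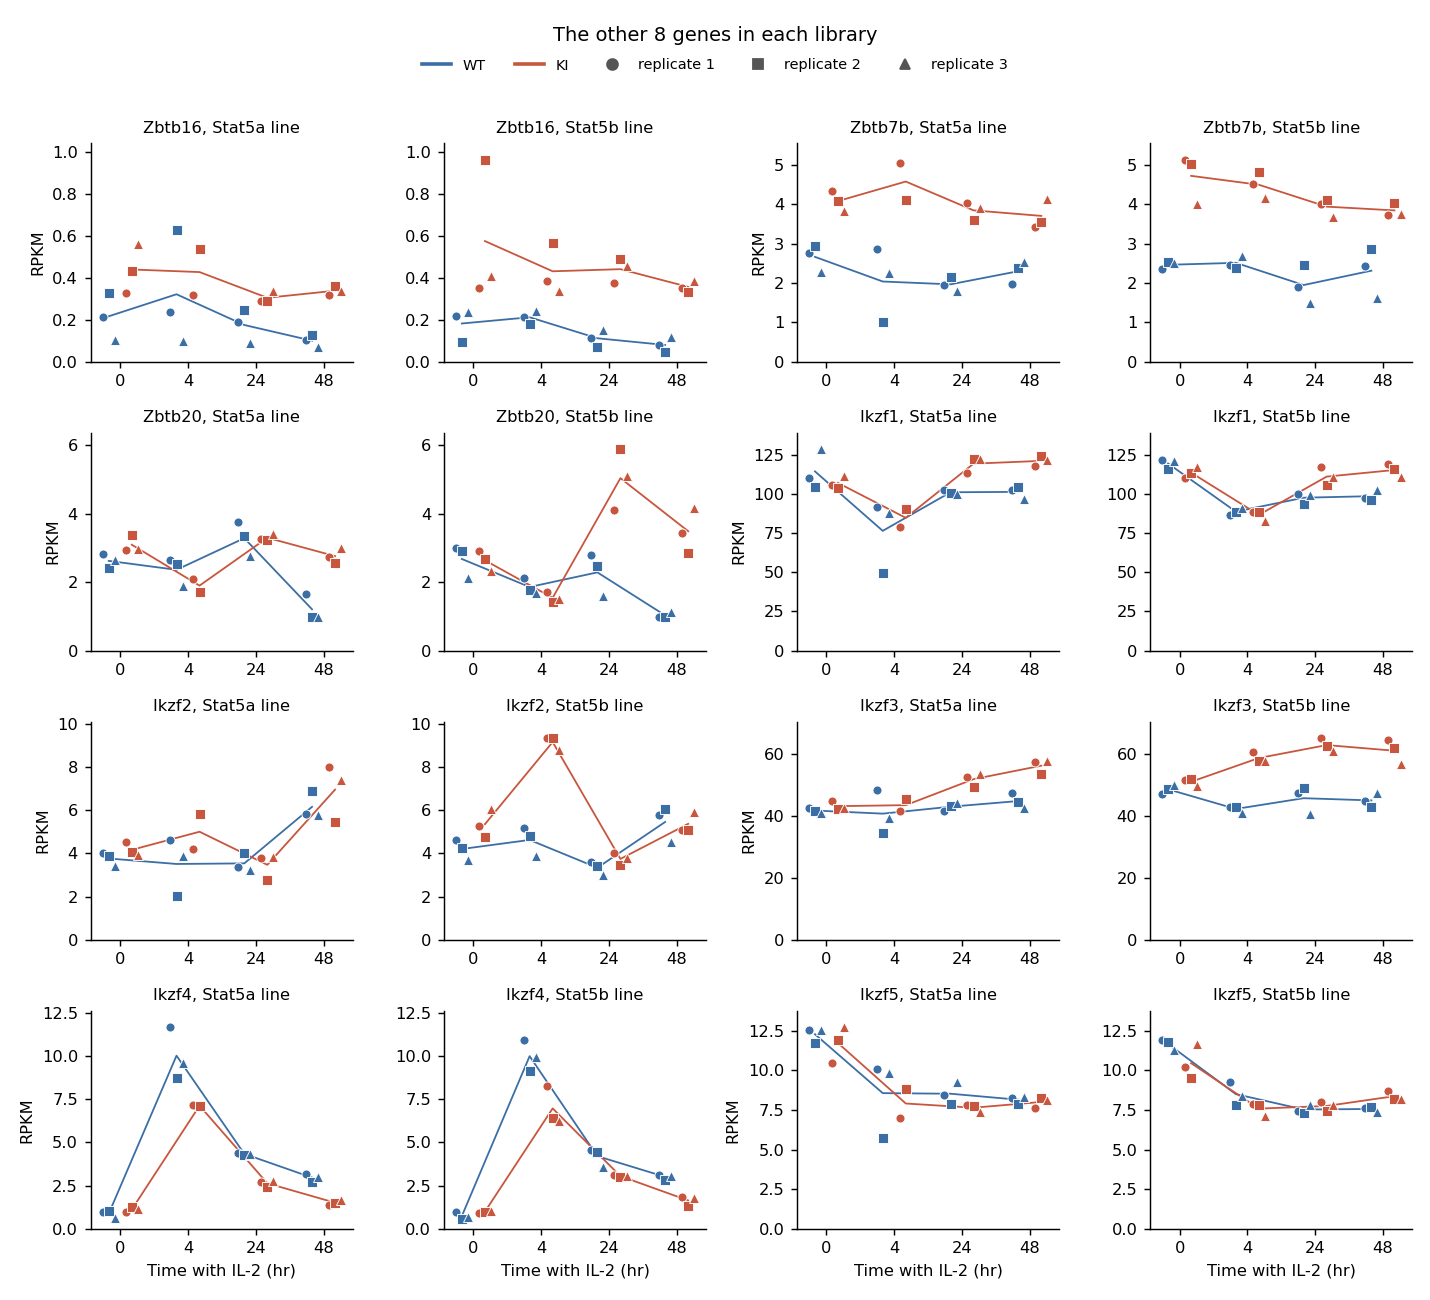
RPKM (linear scale) of the other 8 genes in each library against time with IL-2 (hr, evenly spaced), with 1 panel for each gene and line. Points are libraries, shapes mark the replicate number, and lines join the group means, with WT in blue and KI in red. *Ikzf4* peaks at 4 hr with KI below WT, *Zbtb7b* KI libraries lie above WT at every time, and *Zbtb20* separates at 48 hr with KI above WT.

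*Zbtb20* fell in WT cells by 48 hr and stayed higher in KI cells. *Stat5a* WT replicates were at 2.82, 2.42, and 2.64 RPKM at 0 hr and at 1.64, 0.995, and 0.987 at 48 hr, and KI replicates at 2.95, 3.38, and 2.96 and at 2.73, 2.57, and 2.99. *Stat5b* WT replicates were at 2.99, 2.92, and 2.13 at 0 hr and at 0.980, 0.998, and 1.12 at 48 hr, and KI replicates at 2.90, 2.68, and 2.34 and at 3.45, 2.86, and 4.17. At 48 hr every KI library lies above every WT library of its line, and the WT libraries at 48 hr lie below those at 0 hr. The first held for 34.2% and 43.4% of all tested genes in the *Stat5a* and *Stat5b* line, and the second for 31.7% and 35.4%. The fall of *Zbtb20* in WT cells from 0 to 48 hr was −1.32 ± 0.21 for the *Stat5a* and −1.56 ± 0.22 for the *Stat5b* line (log2, adjusted p = 1.1e-06 and 6.6e-08, edgeR). KI against WT at 48 hr, *Zbtb20* was higher by 1.14 ± 0.21 (2.20-fold, adjusted p = 3.7e-05) in the *Stat5a* line and by 1.68 ± 0.22 (3.21-fold, adjusted p = 1.9e-08) in the *Stat5b* line. The *Stat5a* value fell short of 2-fold without WT replicate 2 or 3 (0.97 each) and in limma on log2(RPKM + 1) (0.78). In limma, the falls in WT cells were also under 2-fold, at −0.73 in the *Stat5a* and −0.85 in the *Stat5b* line. The summed level of 8 naive T cell markers was also lower in WT cells at 48 hr, at 713 to 817 RPKM against 1229 to 1267 in KI cells of the *Stat5a* and 656 to 705 against 1367 to 1522 in the *Stat5b* line, from 1616 to 1837 and 1594 to 1860 in WT cells at 0 hr. The B cell sums at 48 hr were higher in KI cells of both lines as well, and the part of these cells in the *Zbtb20* values was not tested.

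The lines differed at 24 hr for *Zbtb20*. At that time, *Stat5a* WT replicates were at 3.75, 3.34, and 2.78 RPKM and KI replicates at 3.25, 3.24, and 3.41. *Stat5b* WT replicates were at 2.79, 2.47, and 1.61 and KI replicates at 4.12, 5.91, and 5.11. The groups overlap in the first line and are apart in the second, as for 36.5% of all tested genes with KI above WT. The log2 fold changes of KI against WT were −0.06 ± 0.21 (adjusted p = 0.896, edgeR) and 1.11 ± 0.21 (adjusted p = 2.8e-05). The second fell short of 2-fold without WT replicate 3 (0.91) or KI replicate 2 (0.97), and in limma on log2(RPKM + 1) (0.88). Their difference was 1.17 ± 0.29 (adjusted p = 0.0050, edgeR), just under 2-fold without *Stat5b* WT replicate 3 (1.00, adjusted p = 0.0248) and also under it in limma (0.87). This was the one member called of 9 tested in that comparison, in which 2.65% of all genes were called. At 4 hr, by contrast, KI values were not above WT, with log2 fold changes of −0.66 ± 0.24 in the *Stat5a* line (adjusted p = 0.0415, edgeR, overlapping groups, −0.33 with 0.350 without WT replicate 2, and 0.735 with only the groups compared) and −0.38 ± 0.21 in the *Stat5b* line (adjusted p = 0.186).

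Within the *Stat5b* line, *Zbtb20* in KI cells dipped at 4 hr, to 1.71, 1.41, and 1.51 RPKM, and was at 4.12 to 5.91 at 24 hr. From 0 hr the log2 fold changes were −0.997 ± 0.21 at 4 hr (adjusted p = 0.00018, edgeR) and 0.78 ± 0.21 at 24 hr (adjusted p = 0.0019), both under 2-fold. The 4 hr value passed 2-fold in DESeq2 (−1.02), with DESeq2's size factors (−1.02), and with the shortest transcript (−1.035). WT cells of that line were at 2.12, 1.77, and 1.69 RPKM at 4 hr, a log2 fold change of −0.70 ± 0.21 (adjusted p = 0.0055, edgeR). The KI response minus the WT response in the *Stat5b* line was 1.20 ± 0.29 at 24 hr (adjusted p = 0.0014, edgeR) and 1.77 ± 0.30 at 48 hr (5.4e-06), and the KI effect at 24 hr minus that at 4 hr was 1.49 ± 0.30 (0.00017). In limma on log2(RPKM + 1), the 24 hr difference of responses was 0.89, under 2-fold. The *Stat5a* difference of responses at 48 hr was 0.92 ± 0.30 (adjusted p = 0.0182, edgeR), under 2-fold, and 1.00 and 1.21 without KI replicate 2 at 0 hr and WT replicate 1 at 48 hr.

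*Zbtb7b*, which encodes ThPOK, was higher in KI than in WT cells at every time in both lines. At 0 hr, the *Stat5a* line had 2.76, 2.95, and 2.28 RPKM in WT and 4.33, 4.10, and 3.82 in KI cells, and the *Stat5b* line had 2.36, 2.52, and 2.50 in WT and 5.14, 5.04, and 4.00 in KI cells. At 48 hr, the values were 1.97, 2.39, and 2.54 against 3.43, 3.56, and 4.14 in the *Stat5a* line, and 2.44, 2.86, and 1.63 against 3.74, 4.05, and 3.75 in the *Stat5b* line. In all 8 comparisons every KI library lies above every WT library, as it did for 13.1% to 43.4% of all tested genes in the 8 comparisons. The log2 fold changes ranged from 0.60 ± 0.16 (*Stat5a* line, 0 hr, adjusted p = 0.0339, edgeR) to 0.99 ± 0.17 (*Stat5b* line, 24 hr, 4.8e-06), and all 8 passed the adjusted p and none 2-fold. The largest one did pass 2-fold with DESeq2's size factors (1.02), without WT replicate 2 (1.18), and without KI replicate 3 (1.04), and that of the *Stat5a* line at 4 hr, 0.94 ± 0.18, without WT replicate 1 (1.10) or KI replicate 2 (1.06). That 4 hr value was 0.77 without WT replicate 2 (adjusted p = 0.0052, edgeR), and its adjusted p was 0.0668 without KI replicate 1 (0.83) and 0.735 in a fit of only the groups compared (0.91). *Zbtb7b* in the *Stat5a* line at 0 hr was the 1 of 9 members that passed the adjusted p, as did 3.44% of all genes.

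*Zbtb16*, which encodes PLZF, was the least abundant of the 9 genes, with 13 to 259 reads a library. *Stat5b* WT replicates were at 0.216, 0.0954, and 0.234 RPKM at 0 hr and at 0.0780, 0.0435, and 0.116 at 48 hr, and KI replicates at 0.353, 0.963, and 0.408 and at 0.350, 0.334, and 0.384. *Stat5a* WT replicates were at 0.214, 0.329, and 0.105 at 0 hr and at 0.102, 0.128, and 0.0685 at 48 hr, and KI replicates at 0.326, 0.432, and 0.560 and at 0.317, 0.359, and 0.338. At 48 hr the KI libraries are above the WT libraries in both lines, and at 0 hr in the *Stat5b* line only. The same held for 34.2% and 43.4% of all tested genes at 48 hr in the *Stat5a* and *Stat5b* line, and for 28.4% at 0 hr in the *Stat5b* line. *Zbtb16* was higher in KI cells at 48 hr by 2.09 ± 0.54 (log2, adjusted p = 0.00092, edgeR) in the *Stat5b* line and by 1.72 ± 0.52 (adjusted p = 0.0067) in the *Stat5a* line, where the adjusted p was 0.0506 without WT replicate 3. In the *Stat5b* line it was also higher at 24 hr, by 1.96 ± 0.52 (adjusted p = 0.0017, edgeR), and at 0 hr, by 1.59 ± 0.50 (adjusted p = 0.0172), a call lost without WT replicate 2 (adjusted p = 0.117) or KI replicate 2 (0.195).

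*Zbtb16* also fell in WT cells. From 0 to 48 hr its log2 fold change was −1.32 ± 0.52 in the *Stat5a* line (adjusted p = 0.0243, edgeR) and −1.38 ± 0.55 in the *Stat5b* line (0.0248), with overlapping RPKM in both. Markers of other cells were lower in the same WT libraries, with a median B cell sum of 176.5 RPKM at 0 hr and 37.7 at 48 hr in the *Stat5a* and 69.2 and 15.4 in the *Stat5b* line, and a median myeloid sum of 74.2 and 7.67 and of 51.1 and 4.00, and their part in the fall was not tested. Leaving out 1 library lost the first call without replicate 2 at 0 hr (adjusted p = 0.178) or replicate 3 at 48 hr (0.125). The second was lost without replicate 1 or 3 at 0 hr (0.101 and 0.115) or replicate 1 or 2 at 48 hr (0.0724 and 0.145). With all 48 libraries in the fit, of the 6 *Zbtb16* calls in these comparisons only that of KI against WT in the *Stat5b* line at 48 hr remained.

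Cells other than CD8 T cells were traced by markers, because RNA of another cell type in the preparation would add to any gene it expresses. In a bulk sample, fewer cells of a type and less RNA per cell cannot be told apart. Of all genes, 7.38%, 9.2%, 10.9%, and 16.5% were called higher in *Stat5b* KI cells at 0, 4, 24, and 48 hr. In *Stat5a* KI cells 1.04%, 6.63%, 4.45%, and 8.78% were called in either direction. Of 12 B cell markers, all 12 were called higher in *Stat5b* KI cells at each time, relative to WT, and 6, 6, 12, and 12 of 12 in *Stat5a* KI cells at 0, 4, 24, and 48 hr. Their summed level at 48 hr was 45.1, 37.7, and 15.8 RPKM in *Stat5a* WT, 130.9, 116.8, and 139.7 in *Stat5a* KI, 15.4, 13.6, and 16.2 in *Stat5b* WT, and 149.2, 145.7, and 153.1 in *Stat5b* KI cells, with *Cd79a* the most abundant (mean of 45.3 RPKM over the 47 libraries). Of 11 myeloid markers tested, 7, 10, and 10 were called higher in *Stat5a* KI cells at 4, 24, and 48 hr and 10, 10, 11, and 11 in *Stat5b* KI cells at the 4 times. The 8 erythroid markers, which include hemoglobin genes, differed as well. All 8 were called higher in *Stat5b* KI cells at 0 and 4 hr, 7 at 24 hr, and 6 at 48 hr, and in *Stat5a* KI cells 1 was called, at 4 hr. Their summed level was 27.6 to 85.6 RPKM in *Stat5b* WT and 289.5 to 718.3 in *Stat5b* KI cells at 0 hr, and 3.40 to 6.19 and 81.9 to 155.6 at 48 hr, with *Hbb-bs* the most abundant (mean of 50.3 RPKM). The sums of the 8 NK cell markers overlapped between WT and KI cells of both lines at every time, led by *Klrd1* (mean of 50.7 RPKM). No marker of any list was at 0 in all 47 libraries. The 10 CD8 T cell markers summed to 1757 to 1927 RPKM in WT and 2258 to 2531 in KI libraries at 48 hr over both lines. At 0 hr every KI library was below every WT library of its line, at 1464 to 1556 against 1612 to 1957 RPKM in the *Stat5a* and 1626 to 1713 against 1932 to 2150 in the *Stat5b* line.

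Of 7 CD4 and regulatory T cell markers tested, 1, 1, 3, and 3 were called higher in *Stat5b* KI cells at 0, 4, 24, and 48 hr, as 7.38%, 9.2%, 10.9%, and 16.5% of all genes were. In *Stat5a* KI cells 0, 0, 2, and 2 were called higher, and 1 was lower at 4 hr. *Cd5*, which is also in the list of CD8 T cell markers, was the most abundant of these markers (mean of 38.8 RPKM). A sum of these markers, which also include *Ikzf2*, is thus not particular to CD4 and regulatory T cells. Their sum was 149.7 to 161.5 RPKM in *Stat5b* KI against 114.4 to 122.1 in WT cells at 0 hr, 98.5 to 117.9 against 66.5 to 69.7 at 4 hr, 85.1 to 90.5 against 53.1 to 57.0 at 24 hr, and 75.4 to 82.3 against 48.4 to 51.5 at 48 hr. In the *Stat5a* line the sums overlapped at 0 hr and were apart, with KI higher, at 4, 24, and 48 hr (59.9 to 68.1 against 49.4 to 51.4 at 48 hr). *Zbtb7b*, whose product marks the CD4 lineage, and *Zbtb16* were higher in KI libraries in which the B cell and myeloid sums were above those of WT in both lines at every time. The erythroid sums were apart at every time in the *Stat5b* line and only at 48 hr in the *Stat5a* line. The part of these cells in the result was not tested. *Zbtb16* is itself among 10 markers listed for NKT and other innate-like T cells, of which 9 were tested, with *Blk*, also a B cell gene, the most abundant at a mean of 5.92 RPKM. At 48 hr, 4 of the 9 were called higher in *Stat5a* KI cells (6.35% of all genes), and 6 higher and 2 lower in *Stat5b* KI cells (16.5% and 9.81% of all genes). Their summed level in the *Stat5b* line was 15.4 to 16.5 RPKM in KI against 7.47 to 7.59 in WT cells at 0 hr, 14.1 to 15.4 against 6.73 to 8.21 at 4 hr, and 10.9 to 11.8 against 6.29 to 8.44 at 24 hr, and the groups overlapped at 48 hr (8.99 to 10.9 against 7.24 to 10.1). In the *Stat5a* line it was likewise higher in every KI than in every WT library at 0, 4, and 24 hr and overlapped at 48 hr.

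The plasma cell markers had a course of their own. Of 8 listed, *Jchain* was not analysed here and 7 were tested, with *Xbp1* the most abundant (mean of 35.3 RPKM). Their summed level in *Stat5b* KI cells was 144.04 to 160.4 RPKM at 0 hr, 140 to 161 at 4 hr, 73.1 to 89.9 at 24 hr, and 45.8 to 51.6 at 48 hr. In WT cells of that line it was 50.7 to 53.8, 55.6 to 59.5, 41.5 to 44.9, and 73.8 to 75.2. KI libraries were thus above WT libraries up to 24 hr and below them at 48 hr. *Zbtb32* was above WT at 0 and 4 hr and below it at 24 and 48 hr, and its 48 hr values took part in its choice. At 48 hr the list was split, with *Mzb1* called higher (1.85 and 3.81 in the *Stat5a* and *Stat5b* line) and *Irf4* (−1.41 and −1.50) and *Xbp1* (−1.12 and −1.42) called lower. The sum at that time is thus not a measure of plasma cells alone. In *Stat5a* KI cells, replicate 1 had the highest sum at each time, 169.5, 168.7, 77.0, and 48.3 RPKM against at most 96.8 in the others, and it was also the library with the most *Zbtb32*. The part of plasma cells in the *Zbtb32* values was not tested.

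**Figure D3:**
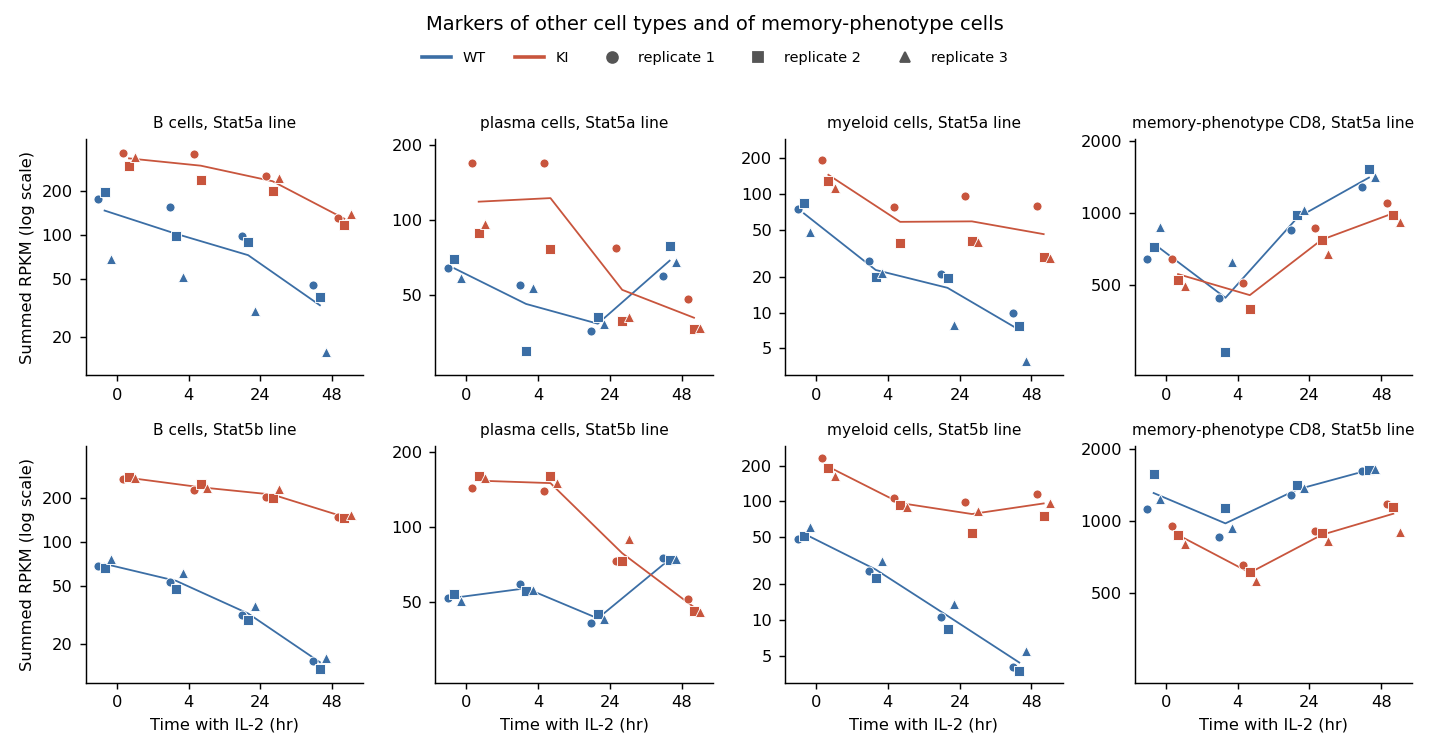
Summed RPKM (log scale) of the markers of B cells, plasma cells, myeloid cells, and memory-phenotype CD8 T cells in each library against time with IL-2 (hr, evenly spaced), with the *Stat5a* line above and the *Stat5b* line below. Points are libraries, shapes mark the replicate number, and lines join the group means, with WT in blue and KI in red. B cell and myeloid sums are higher in KI cells at 48 hr, and the plasma cell sum of *Stat5b* KI cells crosses that of WT cells between 24 and 48 hr.

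Markers of T cell states were also counted at 48 hr, when 2.43% and 9.81% of all genes were called lower and 6.35% and 16.5% higher in *Stat5a* and *Stat5b* KI cells. Of 8 memory-phenotype markers, 1 was called lower in *Stat5a* KI cells, and 4 were lower and 1 higher in *Stat5b* KI cells, with *Ccl5* the most abundant (mean of 234 RPKM). Of 8 naive T cell markers, 1 was called higher in *Stat5a* KI cells, *Klf2* (1.07), and 5 in *Stat5b* KI cells, among them *Il7r* (2.05), which encodes the IL-7 receptor α chain, and *S1pr1* (1.55), which encodes a receptor for egress from lymphoid tissue. The summed level of the memory-phenotype markers at 48 hr was 1611 to 1636 RPKM in *Stat5b* WT and 899 to 1167 in *Stat5b* KI cells, and 1280 to 1522 and 918 to 1100 in the *Stat5a* line. It was also lower in every *Stat5b* KI library at 0 hr (796 to 948 against 1116 to 1569), 4 hr (558 to 651 against 857 to 1130), and 24 hr (824 to 906 against 1274 to 1411). *Zbtb32* was above WT in these KI libraries at 0 and 4 hr and below it at 24 and 48 hr, the last of which took part in its choice. The part of these cells in its difference was not tested.

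*Ikzf1* and *Ikzf3* were the most abundant of the 9 genes, with medians of 104 and 47.5 RPKM over the 47 libraries, and with *Ikzf5* their group means had the narrowest range. *Ikzf1* fell short of any 2-fold change, with group means between 76.5 and 121.2 RPKM. In WT cells its log2 fold change at 4 hr was −0.57 ± 0.06 for the *Stat5a* and −0.60 ± 0.06 for the *Stat5b* line (adjusted p = 1.0e-09 and 3.9e-10, edgeR, and −0.53 in the first without replicate 2), and all 4 hr libraries lie below those at 0 hr, as for 22.5% and 22.8% of all tested genes. At 24 and 48 hr KI libraries were all above WT libraries, by 0.15 to 0.21 (log2, adjusted p = 0.00725 to 0.049, edgeR). That separation held for 28.2% and 34.2% of all tested genes at 24 and 48 hr in the *Stat5a* line, and for 36.5% and 43.4% in the *Stat5b* line.

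*Ikzf3* was higher in KI cells from 4 hr in the *Stat5b* line. WT replicates there were at 42.9, 42.9, and 41.1 RPKM at 4 hr and KI replicates at 60.7, 57.9, and 57.6, and at 48 hr they were at 44.7, 43.0, and 47.4 and at 64.4, 62.0, and 56.9. The groups do not overlap at 4, 24, or 48 hr, as for 31.3%, 36.5%, and 43.4% of all tested genes with KI above WT. The log2 fold changes were 0.36 ± 0.08, 0.43 ± 0.08, and 0.36 ± 0.08 (adjusted p = 0.00035, 1.0e-05, and 8.2e-05, edgeR), and in the *Stat5a* line 0.28 ± 0.08 at 48 hr (adjusted p = 0.0028), all under 2-fold. The B cell sum was also higher in KI libraries of both lines at each time, at 227.2 to 251.6 RPKM against 47.8 to 61.9 in the *Stat5b* line at 4 hr. The part of these cells in the *Ikzf3* values was not tested.

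*Ikzf2*, which encodes Helios, stood out at 4 hr in *Stat5b* KI cells, at 9.35, 9.36, and 8.77 RPKM against 5.19, 4.80, and 3.88 in WT cells. No other library exceeded 8.01 RPKM. The log2 fold change was 0.87 ± 0.15 (1.83-fold, adjusted p = 2.6e-05, edgeR), with every KI library above every WT library, as for 31.3% of all tested genes. The summed CD4 and regulatory T cell markers, which include *Ikzf2* itself, were higher in the same KI libraries (98.5 to 117.9 RPKM against 66.5 to 69.7). The part of these cells in the difference was not tested. In the *Stat5a* line at 4 hr, KI libraries were at 4.20 and 5.81 and WT libraries at 4.62, 2.04, and 3.87, which overlap (0.28 ± 0.16, adjusted p = 0.210, edgeR, and 0.17 without WT replicate 2). At 0, 24, and 48 hr, *Ikzf2* differed between KI and WT cells by at most 0.29 on the log2 scale in either line (adjusted p of 0.169 to 0.755, edgeR).

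*Ikzf5*, which encodes Pegasus, was lower in culture with IL-2 in WT and KI cells, from 9.49 to 12.7 RPKM at 0 hr to 7.30 to 9.25 at 24 and 48 hr. In WT cells the log2 fold change was −0.51 to −0.82 over both lines and 3 times, and in KI cells −0.51 to −0.83, all 12 with an adjusted p of at most 2.1e-06 (edgeR) and none reaching 2-fold. In the *Stat5a* line at 4 hr, the WT value was −0.48 without replicate 2 (adjusted p = 1.57e-05, edgeR). The KI value was −0.61 without replicate 1 and −1.01, past 2-fold, without replicate 2. With only the groups compared, the adjusted p of the WT and KI values were 0.0107 and 0.00436 (edgeR). KI against WT, its log2 fold change at 4 hr was −0.37 ± 0.09 in the *Stat5a* line (adjusted p = 0.0052, edgeR, 0.00571 without WT replicate 2, 0.336 without KI replicate 1, and 0.735 with only the groups compared) and −0.28 ± 0.08 in the *Stat5b* line (adjusted p = 0.0096).

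Counted over the 9 genes, few were called between KI and WT cells. Of the *Stat5a* comparisons, 0 of 9 was called at 0 hr, where 1.04% of all tested genes were called, 1 of 9 at 4 hr (6.63%), 0 of 9 at 24 hr (4.45%), and 3 of 8 at 48 hr (8.78%), with *Zbtb16* and *Zbtb20* higher and *Ikzf4* lower. In the 2 comparisons with none, 2 and 6 members had an unadjusted p under 0.05, and DESeq2 and limma called none either. In the *Stat5b* line, 2 of 9 were called at 0 hr (7.98% of all genes), 1 of 9 at 4 hr (10.4%), 2 of 9 at 24 hr (16.7%), and 2 of 8 at 48 hr (26.3%), all of them higher in KI cells, as 7.38%, 9.2%, 10.9%, and 16.5% of all genes were. Those at 24 and 48 hr are *Zbtb16* and *Zbtb20*. The median log2 fold change of the tested members at 48 hr was 0.24 for the *Stat5a* and 0.25 for the *Stat5b* line, beside 0.04 and 0.10 over all genes.

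**Figure D4:**
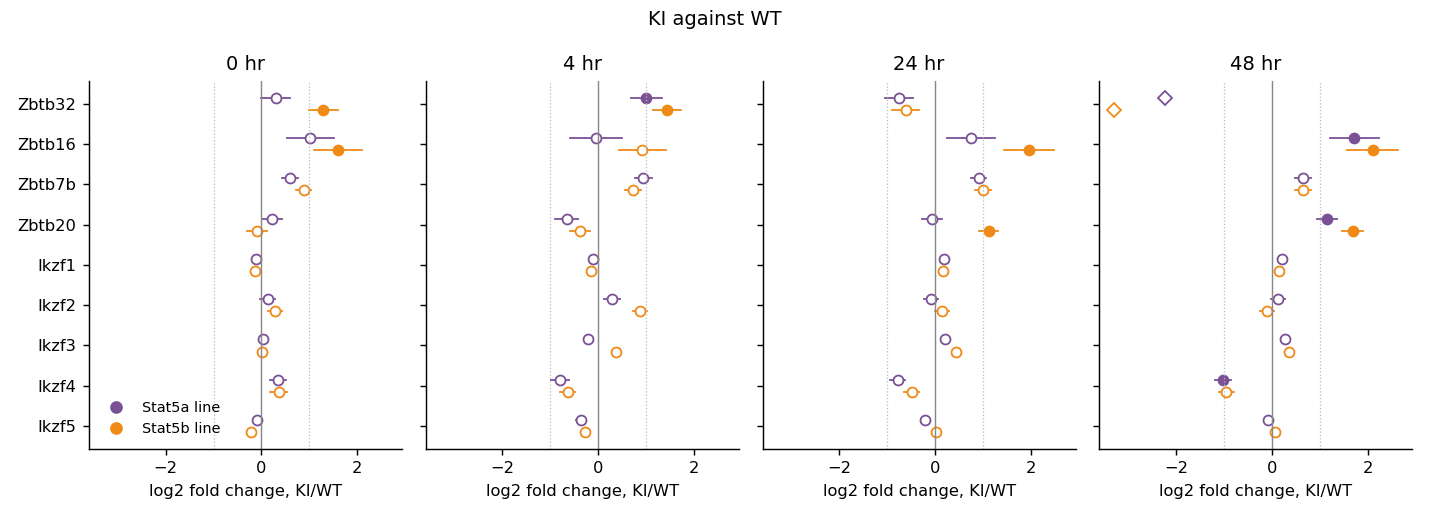
log2 fold change of KI against WT (x axis) for each of the 9 genes (y axis) at 0, 4, 24, and 48 hr in both lines, with bars for ± 1 SE and dotted lines at 2-fold. Filled circles passed an adjusted p of at most 0.05 and 2-fold, open circles did not, and diamonds mark *Zbtb32* at 48 hr, which was not tested. *Zbtb32* moves from the right of 0 at 4 hr to −2.23 and −3.30 at 48 hr.

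For IL-2 against 0 hr in WT cells, the members called were *Ikzf4* at every time, *Zbtb32* at 24 hr, and, at 48 hr, *Zbtb16* and *Zbtb20*, which were lower. This gives 1 of 9 at 4 hr (21.4% and 15.7% of all genes called in the *Stat5a* and *Stat5b* line), 2 of 9 at 24 hr (22.9% and 22.5%), and 3 of 8 at 48 hr (36.6% and 35.3%) in each line. In KI cells, 2 of 9 (*Zbtb32* and *Ikzf4*) were called at 4 hr in the *Stat5a* line and 1 of 9 (*Ikzf4*) in the *Stat5b* line (17.8% and 13.8%), *Ikzf4* alone at 24 hr (21.1% and 15.8%), and 0 of 8 at 48 hr (26% and 18.8%). At 48 hr, 3 and 4 of these 8 had an unadjusted p under 0.05, and DESeq2 and limma called 0. WT and KI responses do not share libraries, but those at 4, 24, and 48 hr share the 0 hr libraries of their group.

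Between the lines, none of 9 was called at 0 hr, where 0.0964% of all genes were, and none of 8 at 48 hr, where 2.06% were. At an unadjusted p under 0.05, the count was 1 at 0 hr and 0 at 48 hr, and DESeq2 and limma called 0 in both. At 48 hr the 95% intervals of the difference, *Stat5b* minus *Stat5a*, were −0.04 to 1.13 for *Zbtb20*, −1.07 to 1.83 for *Zbtb16*, and −0.38 to 0.53 for *Ikzf4* (log2). For *Zbtb32* at that time the difference was −1.08, given without a test.

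The rest of the BTB zinc finger family, 44 tested genes listed by symbol, gives the setting of *Zbtb32*. At 48 hr their log2 fold changes of KI against WT ranged from −0.24 to 1.42 in the *Stat5a* line, with a median of 0.16, and from −0.42 to 3.84 in the *Stat5b* line, with a median of 0.26. *Hic2* was the lowest in both. The *Zbtb32* values of −2.23 and −3.30 lie below all 44, as the choice of *Zbtb32* by these values fixes. *Bcl6*, which encodes a repressor known from germinal center B cells and follicular helper T cells, was called higher, by 1.42 ± 0.18 and 2.51 ± 0.19. The B cell sum was also higher in KI than in WT libraries of both lines at 48 hr, and the part of these cells was not tested. *Bcl6* was the only one called in the *Stat5a* line (1 of 44 beside 6.35% of all genes called higher), and 5 of 44 were called higher in the *Stat5b* line (16.5% of all genes), among them *Zbtb4* (1.42 ± 0.07). The largest fitted value, 3.84, belongs to *Zbtb7c*, which did not exceed 0.0487 RPKM in any *Stat5b* library at 48 hr and was listed at 0 in most WT libraries there. With IL-2 in WT cells at 48 hr, 5 of the 44 were called higher and 7 lower for the *Stat5a* and 5 and 6 for the *Stat5b* line, beside 36.6% and 35.3% of all genes called in either direction. *Zbtb10* (−5.07 and −4.58), *Bcl6* (−2.84 and −3.13), and *Zbtb21* (−2.60 and −2.48) were the lowest, and *Zbtb3* (2.53 and 2.29) and *Zbtb26* (2.11 and 2.08) were among the highest.

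**Figure D5:**
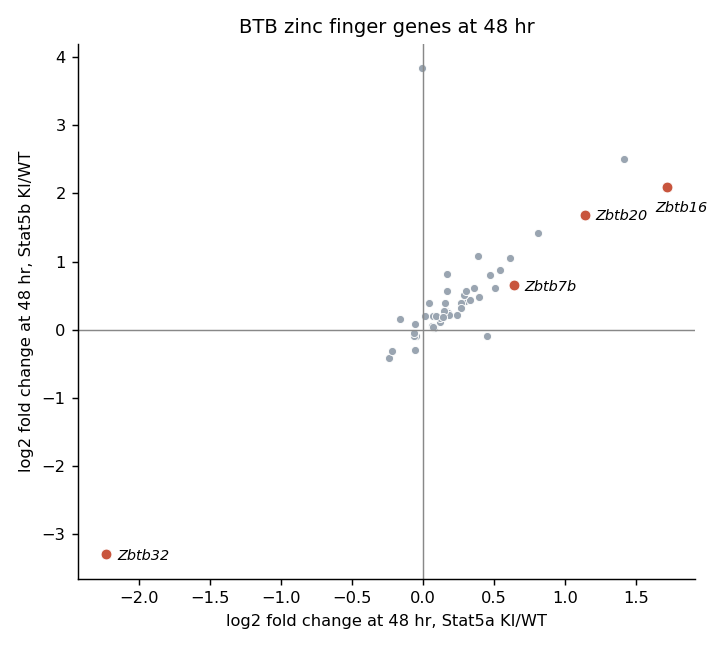
log2 fold change of KI against WT at 48 hr in the *Stat5a* line (x axis) and the *Stat5b* line (y axis) for 48 genes of the BTB zinc finger family, with the 4 family members described here in red and the other 44 in gray. *Zbtb32*, chosen by these values, is at −2.23 and −3.30, and the gray point at 3.84 is *Zbtb7c*, which was listed at 0 in most WT libraries.

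Among the corepressors that bind Ikaros and BTB factors, 1 was called between KI and WT cells at 48 hr. Of 21 genes of NuRD and related complexes, *Rbbp7*, which encodes a histone-binding subunit, was the only one called in either line at 48 hr, and it was lower in the *Stat5b* line (−1.08), where 9.81% of all genes were called lower. The medians were −0.06 and −0.29, beside 0.04 and 0.10 over all genes. The summed level of the 21 genes at 48 hr was lower in every KI library, at 1057 to 1086 against 1114 to 1188 RPKM in the *Stat5a* and 904 to 1004 against 1146 to 1193 in the *Stat5b* line, as it was in the *Stat5b* line at 0 and 24 hr (786 to 832 against 839 to 867, and 862 to 878 against 1003 to 1032). In WT cells *Rbbp7* (1.42) and *Hdac1* (1.02), a histone deacetylase, rose with IL-2 at 48 hr in the *Stat5a* line. Of 18 genes listed as partners or targets of the members in lymphocytes, 3 were called higher and 3 lower at 48 hr in the *Stat5a* line, and 6 higher and 4 lower in the *Stat5b* line, beside 8.78% and 26.3% of all genes called. *Ifng*, which encodes interferon-γ, was among the lowest (−2.67 and −3.11), as was *Irf4* (−1.41 and −1.50). Among the highest were *Il2* (2.32 in the *Stat5a* line), *Cd4* (2.31 and 3.50), and *Foxp3*, the factor of regulatory T cells (3.05 in the *Stat5b* line). *Cd4* and *Foxp3* are also in the list of CD4 and regulatory T cell markers, of which 2 and 3 of 7 tested were called higher at 48 hr, and their part in the list's counts was not tested.

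Genes with a course like that of each member were found by Pearson's correlation of the 16 group means of log2(RPKM + 1). For *Zbtb32* the genes most alike were *Pus10* (0.968) and *Lrrc40* (0.966). For *Ikzf4* they were *Heatr5a* (0.961), *Styx* (0.955), and *Tnfrsf18* (0.949), which encodes GITR, and for *Zbtb16* *Mzb1* (0.932), *Blk* (0.931), and *Btk* (0.930), genes known from B cells. *Zbtb7b* was most like *Blvrb* (0.921), *Cyb561a3* (0.921), and *Plcg2* (0.909), and *Zbtb20* most like *Kmt2c* (0.917). *Ikzf1* was most like *Rgs14* (0.973), *Ikzf2* like *Lclat1* (0.838), *Ikzf3* like *Camk2d* (0.891), and *Ikzf5* like *Ing3* (0.966). Of the 10 genes most like *Zbtb32*, 7 recurred with a pseudocount of 0.1, 4 over the 47 libraries in place of the 16 means, and 9 without a filter on low RPKM. Between members, the r was 0.871 for *Zbtb16* and *Zbtb7b*, −0.886 for *Ikzf1* and *Ikzf4*, and −0.662 for *Zbtb32* and *Zbtb20*. These values are descriptions over 16 means that share lines, times, and libraries. Of the 9 genes, 2 have more than 1 transcript in the files, *Ikzf1* with 2 and *Zbtb20* with 3, and the RPKM of the shorter ones was 0.951 to 1.06 times that of the longest in the 47 libraries.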

How the data were processed

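RNA was measured by RNA-seq in 48 libraries, of which 47 were used. The submitters' processing notes name TopHat 2.0.11, and unique alignments to mm10 (GRCm38) were kept. The deposited values are, for each of 31682 RefSeq transcripts, a raw count and the authors' RPKM. The counting program and its use of strand are not given in the sources used here, nor whether the replicates are separate mice or pools, so the p-values measure the spread between these libraries, which may be technical. The files hold 0 columns of other samples. All replicates of a group differed by more than counting noise.

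The longest transcript of each symbol was taken. Counts were tested in R 4.3.3 with edgeR 4.0.16: TMM, filterByExpr with a minimum count of 10 (15566 genes, all 9 members among them), 1 mean for each group, and the quasi-likelihood test, adjusted by Benjamini and Hochberg over all tested genes. Called means an adjusted p of at most 0.05 and at least 2-fold. A count of 3, the floor, is 0.0498 to 0.173 CPM and covers counting error only. The steps were tested on simulated data. Levels were computed from the deposited RPKM with pandas 2.3.3 and numpy 2.4.6 (Python 3.11.15), and plotted with matplotlib 3.10.9. Alternatives were limma 3.58.1 on log2(RPKM + 1), DESeq2 1.42.0, its size factors in edgeR, no filter, other transcripts, only the groups compared, all 48 libraries, a replicate block, no fold threshold, and each library left out in turn. Genes named are all members, for each gene list the called genes with the largest change, and the genes most alike by correlation. The members and lists were chosen with earlier results of these data known. Replicate 3 of *Stat5a* KI at 4 hr was left out of the main analysis because 5.68% of its mapped reads lie on longest transcripts and its depth is 1028515 reads. The replicate numbers pair libraries, with every correlation of deviations over 0.1, for IL-2 in *Stat5a* WT cells at 24 hr (0.206 to 0.419) and 48 hr (0.117 to 0.192) and in no other comparison of 3 pairs. ChIP-seq was not analysed here.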

Additional observations from a re-analysis of the deposited data

Results flagged for a closer look

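The results below stand out because an effect differed between lines, genotypes, or times by a test of the difference itself (edgeR's quasi-likelihood test, adjusted after Benjamini and Hochberg, log2 scale, ± SE). All but the first come from contrasts added after the data were seen. The KI effect on *Zbtb20* at 24 hr was higher in the *Stat5b* than in the *Stat5a* line by 1.17 ± 0.29 (adjusted p = 0.005). The IL-2 response of *Zbtb20* in the *Stat5b* line was higher in KI than in WT cells by 1.20 ± 0.29 at 24 hr (0.0014) and 1.77 ± 0.30 at 48 hr (5.4e-06), and its KI effect at 24 hr minus that at 4 hr was 1.49 ± 0.30 (0.00017). With all 48 libraries in the fit, the adjusted p of the difference between the lines was 0.236, that of the 24 hr response 0.0911, and that of the 24 minus 4 hr effect 0.0503. In limma on log2(RPKM + 1), the difference between the lines (0.87) and that of the 24 hr response (0.89) fell short of 2-fold.

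The IL-2 response of *Ikzf4* in KI cells minus that in WT cells was −1.14 ± 0.25 at 4 hr (adjusted p = 0.016, edgeR), −1.13 ± 0.24 at 24 hr (0.0035), and −1.37 ± 0.24 at 48 hr (4.4e-05) in the *Stat5a* line, and −1.31 ± 0.24 at 48 hr in the *Stat5b* line (2.3e-05). In limma on log2(RPKM + 1), each of these fell short of 2-fold (−0.61, −0.73, −0.84, and −0.81). The 4 hr call was lost with only the groups compared (−1.16, adjusted p = 0.828), without KI replicate 1 at 4 hr (0.194), and without WT replicate 3 or KI replicate 2 at 0 hr (−0.95 and −1.03).

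The IL-2 response of *Zbtb32* at 24 hr in KI cells minus that in WT cells was −1.91 ± 0.41 in the *Stat5b* line (adjusted p = 0.00033, edgeR). Its KI effect at 24 hr minus that at 4 hr was −1.75 ± 0.43 for the *Stat5a* (0.0075) and −2.05 ± 0.40 for the *Stat5b* line (0.00015). The *Stat5a* call was lost without KI replicate 1 at 4 hr (−1.29, adjusted p = 0.131) and with only the groups compared (−1.75, adjusted p = 0.258). Dixon's test for an outlying value was not run, since no group has more than 3 libraries.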

How the results depend on the processing

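Of the member and comparison pairs tested, 39 of 270 were called. Over the alternatives other than leaving out a library, 2425 values for single genes stayed on their side of the threshold, 33 lost a call, 12 gained one, and 6 that passed the adjusted p in 1 of the settings changed sign. Leaving out each library in turn kept 2179 on their side, lost 29, gained 21, and changed the sign of 0 values that passed. Among all those that stayed on their side, 189 values that passed the adjusted p in neither setting changed sign.

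The count of member calls for KI against WT was 11 of 70. It was 37 with no fold threshold and 3 in limma on log2(RPKM + 1), a scale that understates the change of low genes, and 8 to 12 without each library. IL-2 against 0 hr in WT cells gave 12 calls, 34 with no fold threshold, and 11 to 13 without each library. IL-2 in KI cells gave 5 calls, 27 with no fold threshold, and 4 to 6 without each library. The difference between the lines gave 1 call, *Zbtb20* at 24 hr, 0 with all 48 libraries (adjusted p = 0.236, edgeR), 0 in limma, and 0 to 1 without each library.

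With the left-out library of *Stat5a* KI at 4 hr added, *Zbtb16* changed sign in KI against WT (3.68) and for IL-2 in KI cells (3.57), and *Zbtb20* in KI against WT (0.15). In limma, IL-2 in KI cells at 4 hr reversed for *Ikzf3* in the *Stat5a* line (0.0099) and the *Stat5b* line (0.20), and at 48 hr for *Ikzf1* in the *Stat5b* line (0.021). The cause was not tested.

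With the replicate number as a block, the counts were 11, 12, 5, and 1, equal to those without it, but for KI against WT not the same genes: *Zbtb32* in the *Stat5a* line at 4 hr fell short of 2-fold (0.97) and *Zbtb7b* in the *Stat5b* line at 24 hr reached it (1.00). The differences of the IL-2 response of *Zbtb32* in the *Stat5a* line at 24 hr (−1.04, adjusted p = 0.0404, edgeR) and of *Ikzf4* in the *Stat5b* line at 4 hr (−1.01, adjusted p = 0.00394) also gained a call. The pairing holds only for IL-2 in *Stat5a* WT cells at 24 and 48 hr, and there the block changed no call of a member.

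Counts of all genes called in the *Stat5a* line moved with the libraries used. For KI against WT at 4 hr, 1032 were called, 54 without KI replicate 1, 0 with only the groups compared, and 2668 with all 48 libraries. At 0 hr, 162 were called, 1 with only the groups compared and 20 without WT replicate 3. The difference of the IL-2 response at 4 hr gave 53, 0 with only the groups compared, and 1293 with all 48 libraries, and the KI effect at 24 hr minus that at 4 hr gave 469, 1, and 1629. The difference between the lines at 0 hr gave 15, and 6 to 105 without 1 library. Values of *Zbtb16* rest on 13 to 259 reads a library, in 2 or 3 libraries a group, which limits their precision.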
